A study of Mus musculus with 12 samples.

Results

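The comparison set mid streak embryos (MS) beside late streak embryos (LS) of the mouse for 2 histone marks, H3K27ac and H3K4me1. Its 4 peak lists, MS and LS for each mark, were chosen by stage label from the 12 lists of the study, which also hold Pre_PS (before the streak), ES (early streak), OB (no allantoic bud yet) and EHF (early headfold). All embryos were of the strain C57BL/6, with no mutant allele or agent in the labels. The labels give the embryonic days E6.0 and E7.0 for MS and E7.0 and E7.25 for LS; each embryo was staged by its morphology, and both stages include E7.0. Extraembryonic tissue was removed at Pre_PS, ES, MS and LS per the labels' protocols, which are silent on it for OB and EHF. Cells were dissociated and profiled with CoBATCH, a single-cell method in which an antibody against a mark directs the transposase Tn5 to tag nearby DNA. The lists hold no single cells: each is 1 set of peaks for 1 stage and mark, and how many cells or embryos it pools is not given in the sources used here. With 1 library per stage and mark there is no spread between replicates, so no difference below was tested, and the 95% Wilson intervals cover counting error only.

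Gastrulation turns the epiblast, a single epithelial sheet, into the germ layers. Cells leave through the primitive streak, which lengthens along the posterior midline under Nodal, Wnt, Bmp and Fgf signals, and become mesoderm and definitive endoderm. H3K4me1 marks enhancers, the distant DNA elements that control genes, whether active or poised, and H3K27ac marks enhancers and promoters in use. Between mid and late streak the nascent mesoderm spreads and the first lateral, cardiac and axial fates are laid down.

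For H3K27ac, 30072 peaks over 35.9 Mb at MS and 39635 peaks over 42.1 Mb at LS were analysed. For H3K4me1 there were 42344 peaks over 44.2 Mb and 45666 peaks over 51.3 Mb. The MS libraries were the shallower ones: the background at the weakest peaks, read from the deposited fold and p, was 0.211 fragments at MS and 0.330 at LS for H3K27ac (a ratio of 1.57), and 0.164 and 0.347 for H3K4me1 (2.12). The depth of the lists therefore differed in the same direction as the number of peaks, and its part in the differences below was not tested. Counts of regions and genes are therefore also given for equal numbers of peaks, the strongest by the deposited −log10 q, and gene calls lost there are named. Promoter windows, microRNA hairpins, covered bases and patterns over all stages were counted in the full lists only. In pooled lists, fewer cells with a mark and less of the mark per cell cannot be told apart.

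Most listed markers of the labelled embryos had peaks of both marks nearby at MS and LS. The unit used for genes here is the share: covered bases of a gene's territory (the bases nearest to one of its ends, within 100 kb) per covered Mb of the list. The summed share of 17 primitive streak genes was 2144 bp per Mb at MS and 1975 at LS for H3K27ac, and 2083 and 2104 for H3K4me1. All 17 were covered in the H3K27ac lists at MS and LS, and 16 at MS and 17 at LS for H3K4me1. Of the 20 visceral endoderm genes, markers of the tissue that was dissected away, 15 at MS and 16 at LS were covered by H3K27ac, with summed shares of 926 and 987; Afp, Fgb, Spink1 and Ttr were at 0 at both stages. Of the 20 extraembryonic ectoderm and trophoblast genes 17 and 18 were covered, with summed shares of 2883 and 3031; Prl3d1 and Rhox5 were at 0 at both stages and Elf5 at MS alone. For H3K4me1 the endoderm list summed to 1012.5 and 948, and the trophoblast list to 3093.5 and 3060. A gene counted as covered where any peak base lay in its territory. By that measure, 12 of 20 adult tissue genes at MS and 8 at LS were uncovered by H3K27ac. Of 20 housekeeping genes 1 was uncovered at each stage. Many genes foreign to these embryos were thus covered too, so cover alone does not identify a tissue. The part of remaining extraembryonic cells in any difference was not tested.

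Promoters that carried a mark at MS or LS alone are shown first. RefSeq (GRCm38.p6, the assembly that mm10 names) gave 21045 promoter windows of 17274 protein-coding genes, each from 250 bases before to 50 after a transcription start. A window was counted as LS-only where at least 150 of its 300 bases were covered at LS and 0 at MS, and as MS-only in the opposite case. By H3K27ac in the full lists, of which LS is the deeper, 350 windows (1.66%) were LS-only, 67 (0.318%) MS-only and 11363 covered at both stages. By H3K4me1 the counts were 302 (1.44%), 107 (0.508%) and 11579. Among listed developmental genes, Elf5, a transcription factor of the trophoblast lineage, and Notch4, a Notch receptor of endothelium, had a window that was LS-only in both marks. Esx1, an X-linked homeobox gene of the trophoblast, had one that was LS-only for H3K27ac, and Lef1, which carries Wnt signals to target genes, had a downstream start that was MS-only for H3K4me1. These 4 windows, chosen after their values were seen, are printed because they were marked at one stage and bare at the other; CG dinucleotides are in capitals.

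Elf5 promoter, chr2:103411848-103412147, plus strand: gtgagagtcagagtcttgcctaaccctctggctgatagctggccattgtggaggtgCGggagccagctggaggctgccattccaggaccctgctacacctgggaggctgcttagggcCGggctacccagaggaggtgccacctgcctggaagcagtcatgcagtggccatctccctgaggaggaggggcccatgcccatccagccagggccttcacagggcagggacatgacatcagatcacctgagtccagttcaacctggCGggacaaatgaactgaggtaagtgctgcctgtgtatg
Notch4 promoter, chr17:34564045-34564344, plus strand: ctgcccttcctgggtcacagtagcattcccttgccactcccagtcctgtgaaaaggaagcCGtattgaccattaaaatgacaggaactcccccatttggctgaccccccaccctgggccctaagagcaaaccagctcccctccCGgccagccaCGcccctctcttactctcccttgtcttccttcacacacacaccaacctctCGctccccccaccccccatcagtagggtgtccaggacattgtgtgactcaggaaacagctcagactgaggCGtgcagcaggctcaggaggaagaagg
Esx1 promoter, chrX:137120277-137120576, minus strand: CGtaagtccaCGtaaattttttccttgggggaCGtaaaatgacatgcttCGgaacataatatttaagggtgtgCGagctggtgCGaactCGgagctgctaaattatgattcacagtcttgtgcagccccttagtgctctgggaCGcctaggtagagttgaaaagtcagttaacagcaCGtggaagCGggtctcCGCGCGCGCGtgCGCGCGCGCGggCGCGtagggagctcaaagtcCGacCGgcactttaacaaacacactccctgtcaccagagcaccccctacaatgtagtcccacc
Lef1 downstream promoter, chr3:131156044-131156343, plus strand: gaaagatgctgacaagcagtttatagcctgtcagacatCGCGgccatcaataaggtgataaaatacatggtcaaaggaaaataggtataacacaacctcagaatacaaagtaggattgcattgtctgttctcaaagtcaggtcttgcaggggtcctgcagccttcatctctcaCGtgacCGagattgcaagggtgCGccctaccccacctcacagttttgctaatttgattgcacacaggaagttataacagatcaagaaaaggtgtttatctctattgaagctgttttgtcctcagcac

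In the Elf5 window H3K27ac covered 0 bases at Pre_PS, 279 at ES, 0 at MS, 300 at LS, 300 at OB and 0 at EHF. H3K4me1 covered 0, 218, 0, 281, 300 and 0 bases in the same order. The Elf5 window was thus marked before and after MS by both marks. The Notch4 window was also marked at ES, with 300, 300, 0, 205, 156 and 236 bases of H3K27ac and 0, 300, 0, 271, 169 and 246 of H3K4me1. The Esx1 window held no H3K27ac at Pre_PS, ES or MS, and 300, 297 and 125 bases at LS, OB and EHF; H3K4me1 was already there at ES (300 bases) and MS (203 bases). This window thus held H3K27ac from LS on and none before, over DNA that already carried H3K4me1; elsewhere in its territory Esx1 held H3K27ac at ES and MS too. The Lef1 window held 300 bases of H3K4me1 at MS and 0 at the other 5 stages, with 3 bases of H3K27ac at LS; the 3 windows upstream of it were covered by both marks at MS and LS. The Lef1 peak was among the weakest of its list, at the lowest fold (2.58) and −log10 q (1.21), and an ES peak touched the same region outside the window.

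The windows marked at one stage held fewer CG than those marked at both. The median number of CG dinucleotides was 11 in the LS-only, 7 in the MS-only and 23 in the shared H3K27ac windows, against 3 in uncovered ones and 13 in all. For H3K4me1 the medians were 9, 9 and 23. Windows covered only in part, which fell in none of these classes, numbered 1069 for H3K27ac and 1199 for H3K4me1. Their medians were 9 and 10, so a low CG number was not particular to windows marked at one stage. The printed windows of Elf5, Notch4 and Lef1 hold 3, 5 and 5, and that of Esx1 holds 24, above the shared median. The GC box (GGGCGG, either strand), which Sp1 family factors bind, was in 44.6% of LS-only, 31.3% of MS-only and 73.9% of shared H3K27ac windows, and in 46.7% of all. The TATA box (TATAAA, either strand) was in 7.14%, 13.4% and 5.15%, and in 12.7% of all. In the H3K27ac windows covered in part the GC box was in 35.0% and the TATA box in 14.0%. Of the LS-only H3K27ac windows 68.0% held that mark at ES and 59.1% at OB; of the MS-only ones 53.7% and 49.3% did. Other listed genes with an LS-only window were Pax6 (H3K27ac; 180 bases at ES, 300 at LS, 0 at OB), Hnf4a (H3K27ac; 224, 174 and 0), and, for H3K4me1, the apolipoprotein genes Apoe (271, 300 and 300) and Apoa1 (281, 205 and 265), both expressed in visceral endoderm. The H3K4me1 window of Zfp42, a marker of naive pluripotency, was covered at LS (300 bases) and at no other stage. Reference genes had such windows as well: B2m, a housekeeping gene, was LS-only for H3K4me1 (227, 174 and 35 bases at ES, LS and OB), Prm1, a sperm protamine gene, was LS-only for H3K27ac (216 bases at LS), and Acta1, of adult muscle, was MS-only for H3K4me1 (300 bases at ES and MS).

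MicroRNAs, short RNAs that repress messages matching their seed (bases 2 to 8), were counted by their hairpins. Of 1005 hairpins in the RefSeq table, H3K27ac covered 201 at both stages, 51 at LS alone and 9 at MS alone; for H3K4me1 the counts were 223, 40 and 13. Over all merged regions, described below, 29.1% were LS-only and 7.11% MS-only for H3K27ac, and 21.1% and 13.5% for H3K4me1. Of the 51 LS-only hairpins for H3K27ac 28 were covered at ES, and 12 were absent at ES and present at OB. Of the 40 for H3K4me1 these counts were 19 and 10. In both marks 13 hairpins were LS-only. Mature forms of 6 hairpins are printed, chosen after their values were seen, with the seed in capitals.

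mmu-miR-34a-5p: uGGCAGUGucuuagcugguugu
mmu-miR-148a-3p: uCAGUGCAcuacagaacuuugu
mmu-miR-200c-3p: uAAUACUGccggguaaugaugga
mmu-miR-93-5p: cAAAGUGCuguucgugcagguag
mmu-miR-106b-5p: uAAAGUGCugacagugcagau
mmu-miR-25-3p: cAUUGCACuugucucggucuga

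The Mir34a hairpin (chromosome 4, 150068454 to 150068555), a target of p53, was uncovered by either mark at Pre_PS, ES and MS. At LS and OB all 102 of its bases were covered by both marks, and at EHF by H3K4me1. Mir148a held H3K27ac over its 99 bases at LS, OB and EHF and at no earlier stage, while H3K4me1 covered it at ES, LS, OB and EHF and not at MS. Mir200c, whose 3p form represses the Zeb factors of epithelial-mesenchymal transition, had H3K4me1 over 0 of 69 bases at ES and MS and over 69 at LS and OB. Its H3K27ac cover was 69 bases at ES, 38 at MS and 69 at LS. Mir25, Mir93 and Mir106b lie in 1 cluster on chromosome 5; miR-93-5p and miR-106b-5p share the seed AAAGUGC. H3K27ac covered Mir93 and Mir106b at LS and at no other stage, and Mir25 at ES and LS. H3K4me1 covered Mir25 and Mir93 at ES and OB and at neither MS nor LS, so the marks did not follow the same stages at these hairpins. Over the 82 bases of Mir106b it covered 82 at ES and OB, 22 at MS and 17 at LS, so H3K4me1 peaks reached the cluster at MS and LS too.

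Regions were made by merging the MS and LS peaks of a mark wherever they overlapped by at least 1 bp. Of 42135 H3K27ac regions, 26874 were shared, 12265 (29.1%) LS-only and 2996 (7.11%) MS-only. Of 52467 H3K4me1 regions, 34327 were shared, 11070 (21.1%) LS-only and 7070 (13.5%) MS-only. With equal numbers of peaks, 5353 H3K27ac regions (15.2%) were LS-only and 5564 (15.8%) MS-only. Lists of equal length must give similar single-stage counts, so the part of depth in the excess of LS-only regions was not tested by them. Of those 5564 regions 46.2% (95% Wilson interval 44.8 to 47.5%) had a weaker LS peak in the full list. For H3K4me1, equal numbers gave 8735 (17.4%) and 8045 (16%).

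Counted in bases, LS-only regions held 6.17 Mb of the H3K27ac bases of LS (14.6%), and a further 5.23 Mb (12.4%) lay in shared regions where the LS peak reached past the MS peak. MS-only regions held 1.65 Mb (4.59%) of the MS bases, and MS peaks reached past LS peaks over 3.52 Mb (9.79%). For H3K4me1 the widening of shared regions outweighed the separate ones: 8.54 Mb (16.6% of the LS bases) lay in shared regions beyond the MS peak and 5.58 Mb (10.9%) in LS-only regions. Widening at MS came to 3.94 Mb (8.90%).

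Peaks of a single stage came from the weak end of each list. In the upper 50% of the list by −log10 q, 0.206% of MS and 3.75% of LS H3K27ac peaks had no counterpart, as did 0.713% and 2.42% of the H3K4me1 peaks. In the weakest 10% of each list the same values were 42.6% and 78.1% for H3K27ac and 64.3% and 68.8% for H3K4me1. Of the 3008 strongest MS H3K27ac peaks 2 had no LS peak, and of the 3964 strongest LS peaks 0 had no MS peak (95% Wilson upper bound 0.0968%).

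**Figure D1:**
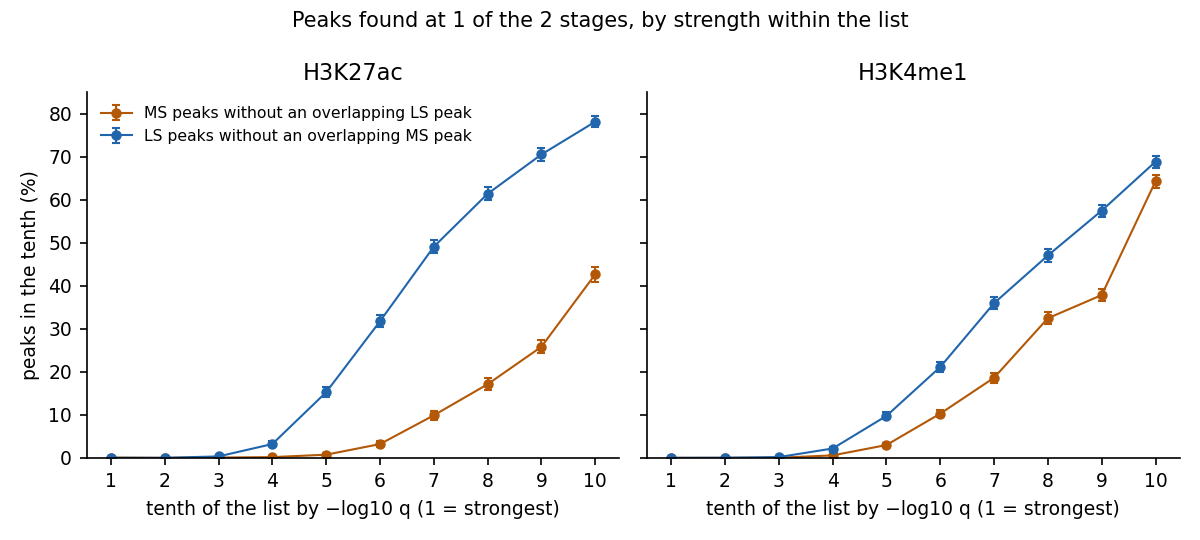
Percent of MS peaks without an overlapping LS peak and of LS peaks without an overlapping MS peak (y axis) in each 10% of the list, from strongest to weakest by −log10 q (x axis), for each mark; bars are 95% Wilson intervals. In the weakest 10% the H3K27ac values reach 42.6% (MS) and 78.1% (LS).

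Single-stage regions lay farther from genes and were narrower than shared ones. Of the H3K27ac regions, 94.7% (93.8 to 95.4%) of MS-only and 90.8% (90.3 to 91.3%) of LS-only regions lay far from genes, that is over 1 kb from either end of any protein-coding gene, against 50.9% (50.3 to 51.5%) of shared ones. For H3K4me1 the values were 93.7%, 92.7% and 59.0%. The median distance was 31.7 kb for MS-only, 15.2 kb for LS-only and 1.19 kb for shared H3K27ac regions, and 23.3, 18.2 and 3.29 kb for H3K4me1. MS-only H3K27ac regions were thus the most remote class: 41.4% of them lay over 50 kb from a gene end, against 24.1% of LS-only and 10.1% of shared regions. Fewer of them were inside genes (42.2%, against 60.4% and 76.8%). With equal numbers of peaks the median distances were 25.5 kb for MS-only and 12.5 kb for LS-only regions.

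**Figure D2:**
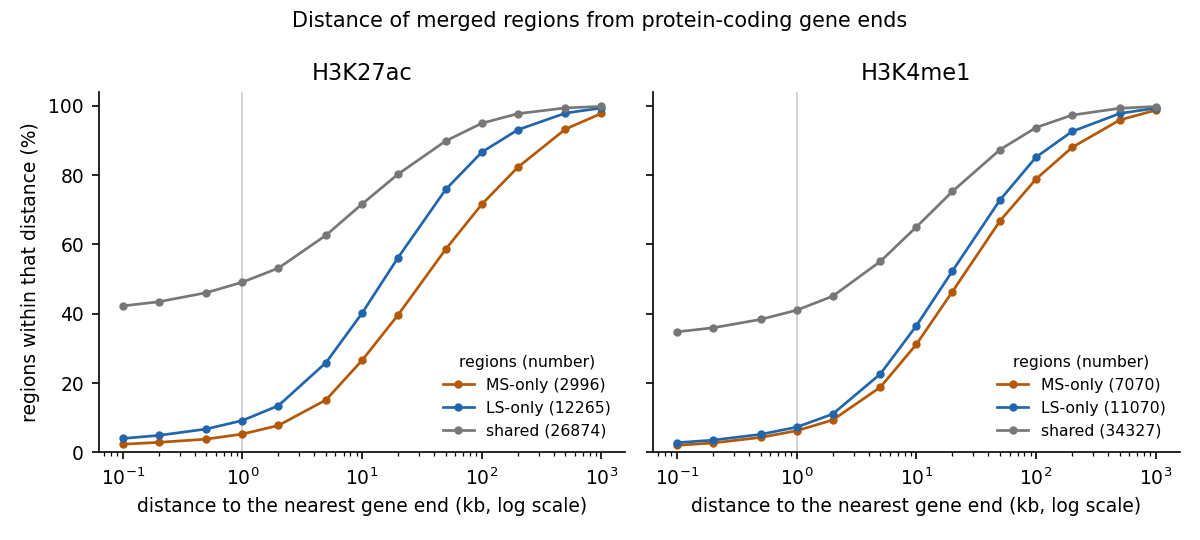
Percent of merged regions (y axis) within a given distance of the nearest protein-coding gene end (x axis, kb, log scale), for MS-only, LS-only and shared regions of each mark; the grey line marks 1 kb. The H3K27ac MS-only curve lies below the LS-only curve, with medians of 31.7 and 15.2 kb.

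Median widths were 445 bp (MS-only), 415 bp (LS-only) and 1114 bp (shared) for H3K27ac, and 385, 413 and 1031 bp for H3K4me1. A shared region spans its MS and LS peaks together. The median bases covered in shared regions were 960 at MS and 1007 at LS for H3K27ac, and 846 and 934 for H3K4me1. The deposited fold, the authors' value for each peak over local background, can be read only within a list. The highest fold in each region was used, and a shared region can hold several peaks of a list. In the H3K27ac lists its median was 3.97 in MS-only regions against 7.55 at MS in shared ones. It was 4.13 in LS-only regions against 10.2 at LS in shared ones. In the H3K4me1 lists the pairs were 2.89 and 5.47 at MS, and 3.98 and 8.59 at LS.

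The lists of the other stages took no part in making these classes, so they show whether a single-stage region was seen again. LS-only H3K27ac regions were marked at ES in 45.7% (44.9 to 46.6%) of cases and at OB in 42.4% (41.6 to 43.3%). MS-only regions were marked at ES in 40.9% (39.2 to 42.7%) and at OB in 27.1% (25.5 to 28.7%), against 93.2% and 92.2% of shared regions. For MS-only regions the value was thus higher in the earlier neighbour than in the later one. With equal numbers of peaks MS-only regions were marked in 53.5% at ES and 41.7% at OB, and LS-only regions in 59.5% and 59.2%. At Pre_PS, a far shallower list (background 0.0499 fragments), 5.04% of MS-only and 1.90% of LS-only regions held a peak. ES (0.262) was somewhat deeper than OB (0.230).

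For H3K4me1, LS-only regions were marked at ES in 48.9% and at OB in 53.2%, and MS-only regions in 36.1% and 32.7%. Here OB was the deeper list (0.329 against 0.185 fragments). At EHF the values were 27.5% for LS-only and 13.4% for MS-only regions.

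**Figure D3:**
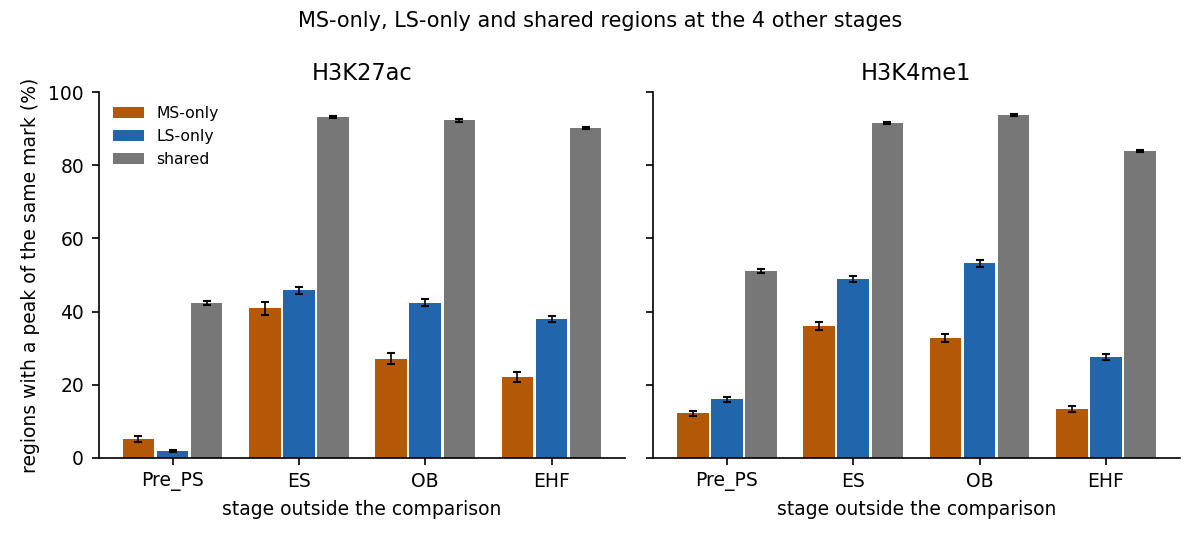
Percent of MS-only, LS-only and shared regions (y axis) with a peak of the same mark at each of the 4 stages outside the comparison (x axis), for each mark; bars are 95% Wilson intervals. MS-only H3K27ac regions stand at 40.9% at ES and 27.1% at OB, and LS-only ones at 45.7% and 42.4%.

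Sorted over all stages, 830 of the 12265 LS-only H3K27ac regions (6.77%) had no peak at Pre_PS or ES and one at both OB and EHF, so that LS was the first stage with a peak. A larger number, 2131 (17.4%), were present at ES, OB and EHF and missing at MS, and 3805 (31.0%) were seen at LS alone. Of the 2996 MS-only regions, 564 (18.8%) were present at ES and absent at OB and EHF, with MS as the last stage; 229 (7.64%) were missing only at LS among ES to EHF, and 1235 (41.2%) were seen at MS alone. For H3K4me1, 529 LS-only regions (4.78%) were first seen at LS and present at OB and EHF, and 1062 MS-only regions (15.0%) were present at ES and ended at MS.

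The 830 regions that began at LS mostly held H3K4me1 beforehand. It was present at ES in 77.8% (74.9 to 80.5%), at MS in 70.7% (67.5 to 73.7%) and at LS in 87.0% (84.5 to 89.1%) of them. The 2131 LS-only regions also present at ES, OB and EHF held it in 91.6% at ES, 83.6% at MS and 95.4% at LS. The 3805 seen at LS alone held it in 42.7%, 33.0% and 47.1%. H3K4me1 beforehand was thus not particular to the regions that began at LS. Over all LS-only H3K27ac regions H3K4me1 was present at MS in 55.4% and at LS in 70.6%, over MS-only regions in 43.2% and 50.9%, and over shared regions in 94.4% and 97.5%. In the opposite direction, LS-only H3K4me1 regions held H3K27ac at MS in 16.7% and at LS in 36.5%, and MS-only ones in 11.0% and 20.2%. The 529 H3K4me1 regions that began at LS held H3K27ac at MS in 18.0% and at LS in 47.6%.

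Of those 830 H3K27ac regions, 30 (3.61%, 2.54 to 5.11%) had their nearest gene end at a listed gene, a share close to the 2.95% (2.67 to 3.27%) of all LS-only and the 3.41% of shared regions. They lay at genes of many lists, and those named here were picked after their values were seen. The strongest lay 0.388 kb from an end of Meox1, a homeobox gene of the paraxial mesoderm and somites (chromosome 11, 101893369 to 101893966), with a fold of 9.11 at LS and H3K4me1 at MS and LS. The next lay 0.894 kb from Cdx2, a homeobox gene of the posterior body (chromosome 5, 147301794 to 147302260; fold 8.91), with H3K4me1 at LS and not at MS. Cdx2 is also in the visceral endoderm and trophoblast lists used to check the dissection, and Sox21, named below, is also in the trophoblast list. Others lay 31.2 and 28.1 kb from Tcf15, a paraxial mesoderm factor, 27.5 and 15.0 kb from Smarcd3, an early marker of cardiac progenitors, and 10.2 and 36.9 kb from Wnt11, a ligand of the non-canonical Wnt pathway. Bmp7 had regions 3.36 and 72.1 kb away, Foxa2, a factor of node and endoderm, one 62.7 kb away, Hoxb9 one 9.41 kb away and Foxf1, a factor of lateral plate mesoderm, one 36.4 kb away. Neural genes (Sox21, fold 6.11, and En2, 4.39), pluripotency genes (Klf2, 5.82, and Dnmt3a, 3.88) and genes of the Notch, epithelial-mesenchymal and surface ectoderm lists had such regions too, several of them stronger than those of Hoxb9 (5.24) and Foxf1 (5.13). The regions were as far as 356 kb (Bmp4) from their gene, and a nearest gene need not be the one a region acts on.

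Of the 564 H3K27ac regions that ended at MS, 13 (2.31%, 1.35 to 3.90%) were nearest to a listed gene, against 2.24% of all MS-only regions. The strongest lay 125 kb from Eomes, the T-box factor of the early streak (chromosome 9, 118352688 to 118353286; fold 6.57 at MS), and held H3K4me1 at LS but not at MS. The next were those of Gata6, a factor of heart and endoderm (4.60), and Sox1, of neural ectoderm (4.42). Eomes is also in the trophoblast list and Gata6 in the visceral endoderm list. Lhx1, a factor of the anterior streak, had 2 such regions (36.0 and 102 kb away), and Wnt3, a ligand needed for the streak to form, had 1 at 1.68 kb. Chrd, a Bmp antagonist of the node, had 1 at 79.9 kb, and Sox17, a factor of definitive endoderm, had 1 at 35.8 kb. Hand2, Lhx2, Mmp2, Hey2 and the housekeeping gene Ywhaz had 1 each, so the 13 regions were not only at genes of streak, node and endoderm.

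Of the 5 strongest LS-only H3K27ac regions, 4 are described here. They were nearest to Mrps21, Ror2, Pced1b and Dmap1, with folds of 12.8 to 14.0, and all 4 were present at ES, OB and EHF. They also held H3K4me1 at MS, so from ES on MS was the only stage without H3K27ac there. The one inside Ror2, a Wnt5a receptor (chromosome 13, 53211710 to 53212415), lay 73.7 kb from the gene's nearer end. The strongest MS-only regions (folds 10.1 to 20.5) were nearest to Neto1 (697 kb away), Alox5ap (16.2 kb), Fry (114 kb), Myo3b (41.6 kb) and Capza3 (71.5 kb). Those of Alox5ap, Myo3b and Capza3 were absent from all other H3K27ac lists, that of Fry was seen at OB, and that of Neto1 at ES, OB and EHF. The regions of Alox5ap and Capza3 held no H3K4me1 at any stage either. For H3K4me1, 4 of the 5 strongest LS-only regions were nearest to Bhlhe40, 1700017B05Rik, Ola1 and Tsga10ip (folds 11.2 to 15.7), and all 4 were present at ES, OB and EHF. All 4 held H3K27ac at LS, and all but that of Bhlhe40 at MS. Bhlhe40 encodes a basic helix-loop-helix repressor; its region (chromosome 6, 108700498 to 108701039) lay 33.6 kb away. The strongest MS-only H3K4me1 regions, nearest to Usp24, Dusp26, Dthd1, Ephb1 and Ssr2, had folds of 6.29 to 7.247, and 0 of the 5 held H3K27ac at MS. Their distances ran from 2.1 kb (Ssr2) to 344 kb (Dthd1). They ranked 12630 to 15012 of 42344 peaks.

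The genes were then compared by share; a gene counts as tested where it could pass the rule, with no statistical test. Of 6592 genes with at least 2 kb of H3K27ac at MS or LS, 839 (12.7%) had a share at least 1.5-fold higher at LS and 440 (6.67%) one at least 1.5-fold lower, with 2 kb or more covered at the higher stage. Covered bases not scaled to the list gave 1421 higher and 243 lower. Of 7629 genes for H3K4me1, 835 (10.9%) were higher and 532 (6.97%) lower, or 1447 and 263 unscaled. The covered length at LS was 1.17 times that at MS for H3K27ac and 1.16 times for H3K4me1, which is the shift between the scaled and unscaled counts. With equal numbers of peaks the H3K27ac counts drew closer, 667 (11%) higher and 537 (8.84%) lower of 6078; 490 of the 839 and 318 of the 440 were called again. For H3K4me1, 789 (10.5%) were higher and 551 (7.36%) lower of 7482; 704 of the 835 and 455 of the 532 were called again. The marks overlapped in part among the 6215 genes tested in both. There 150 genes were higher at LS in both, 17.9% of the 839 and 18.0% of the 835. Another 59 (7.03% of the 839) were higher for H3K27ac and lower for H3K4me1. Of the 440 lower for H3K27ac, 41 (9.32%) were lower and 50 (11.4%) higher for H3K4me1. Over all genes tested for H3K4me1, 10.9% were higher and 6.97% lower. The 839, 835 and 440 are calls over all genes tested in 1 mark, not only the 6215, so the overlap percentages and these values have unlike bases.

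The genes called between MS and LS were also read in ES and OB, whose lists did not enter the call. The share was higher at OB than at ES for 52.3% (48.9 to 55.7%) of the genes higher at LS for H3K27ac, for 45.0% (40.4 to 49.7%) of those lower at LS, and for 60.1% of all 6592. For H3K4me1 the values were 54.9% (51.5 to 58.2%), 42.7% (38.5 to 46.9%) and 50.7%. For H3K27ac the genes higher at LS thus had a higher share at OB less often than all genes. The share was higher at ES than at MS for 84.7% of the H3K27ac genes higher at LS. It was so for 8.41% of those lower at LS and for 40.4% of all. For H3K4me1 these values were 82.2%, 10.7% and 41.4%. The MS list entered the call, so the comparison of ES with MS is not independent of it.

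Arhgef10l, which encodes an activator of small GTPases (chromosome 4, 140514485 to 140666007), had the largest positive difference in both marks. It and the genes that follow were picked for their difference between MS and LS, so their values are a description. Its H3K27ac share, in bp per Mb, was 32.2 at Pre_PS, 694 at ES, 330 at MS, 787 at LS, 397 at OB and 385 at EHF, from 11.8 kb of covered bases at MS and 33.2 kb at LS. ES and LS were the high stages, and MS, OB and EHF the low ones. Its H3K4me1 share was 764, 899, 570, 923, 810 and 631 bp per Mb, with MS again below both neighbours. Within 100 kb of its ends 19 H3K27ac regions were LS-only, 15 shared and 1 MS-only; 9 of the 19 were marked at ES, 10 at OB, 4 at EHF and 6 at no other stage.

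Bmp7, a Bmp ligand of the node and axial mesoderm (chromosome 2, 172868012 to 172940321), differed in another way. Its H3K27ac share, in bp per Mb, was 155 at Pre_PS, 374 at ES, 372 at MS, 588 at LS, 499 at OB and 461 at EHF, so LS, OB and EHF all lay above ES and MS. Covered bases went from 13.4 kb at MS to 24.8 kb at LS. Of its 9 LS-only H3K27ac regions 4 were marked at ES, 6 at OB and 5 at EHF, while 21 of its H3K4me1 regions were shared by MS and LS.

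**Figure D4:**
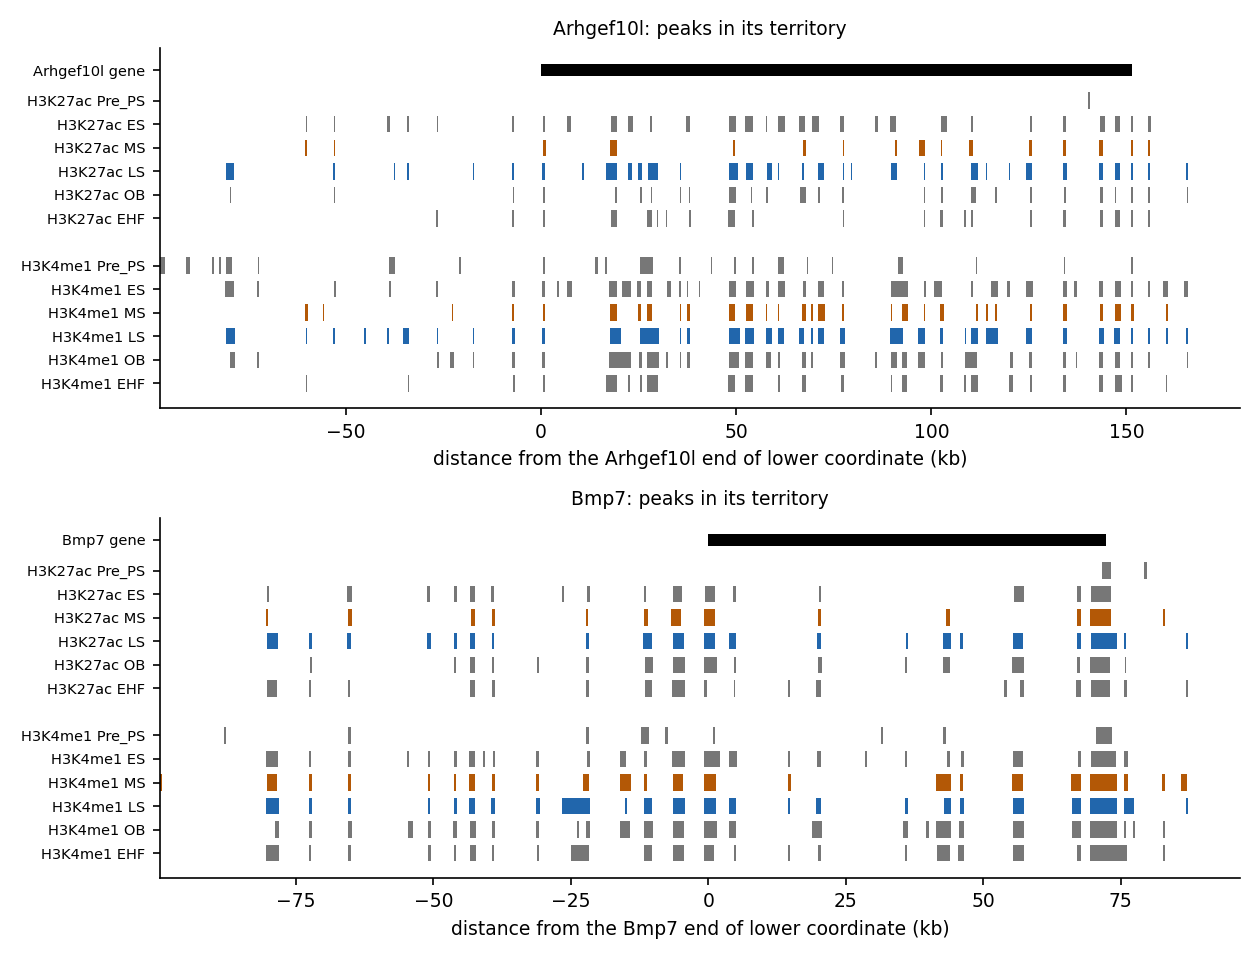
Peaks of both marks (bars, drawn to scale) at the 6 stages (rows) in the territories of Arhgef10l and Bmp7, against distance from the gene end of lower coordinate (x axis, kb); MS is orange, LS blue, other stages grey and the gene black. LS has 19 H3K27ac regions without an MS peak at Arhgef10l and 9 at Bmp7.

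Wnt4, a Wnt ligand (chromosome 4, 137277635 to 137299501), had an H3K27ac share of 186 bp per Mb at MS and 401 at LS, with 325 at ES, 329 at OB and 334 at EHF. MS was thus the lowest stage at Wnt4 from ES on. MS was also the lowest of these stages at Ube3b, a ubiquitin ligase gene (319 at ES, 125 at MS, 337 at LS and 291 at OB). The same held for Cbfa2t3, a corepressor of blood cells (555, 304, 533 and 526), Ttc7 (570, 382, 597 and 593) and Hspg2, the gene of the basement membrane proteoglycan perlecan (1049, 575, 831 and 858). Prex1, an activator of Rac (498 at MS and 781 at LS), Dlgap4 (431 and 683) and Septin9 (732 and 933) complete the 10 genes with the largest positive difference; Hspg2 and Septin9 differed by less than 1.5-fold. With equal numbers of peaks LS held 574 bp per Mb at Prex1, 521 at Dlgap4 and 183 at Ube3b, which were then no longer called, and the difference at Arhgef10l was 279 in place of 457. With 50 kb territories Prex1, Dlgap4 and Bmp7 were not called. Ube3b turned in the upper 50% of peaks, where its difference was −6.96 bp per Mb.

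The H3K27ac genes with the largest negative difference were Gins2, Ptprs, Cacna1g, Galk1, Kmt2d, Hdac5, Lhx2, Tpsg1, Cbx8 and Dhx38. Cacna1g, a calcium channel gene, held 274 bp per Mb at ES, 483 at MS, 305 at LS, 270 at OB and 388 at EHF. Lhx2, a LIM homeobox gene of the forebrain and eye, held 250, 366, 231, 265 and 229 bp per Mb in the same order. Galk1, galactokinase, held 191, 304, 143, 201 and 225 bp per Mb, from 10.9 kb at MS and 6.01 kb at LS. Kmt2d, which encodes a methyltransferase that writes H3K4me1, held 608, 786, 628, 605 and 699 bp per Mb. At each of these genes MS was the highest of the stages from ES on. Covered bases were closer than shares at some of them: Gins2 had 53.6 kb at MS and 52.0 kb at LS, and Kmt2d 28.2 and 26.5 kb. Of the 10, Cacna1g, Galk1, Lhx2 and Dhx38 differed by at least 1.5-fold, Cacna1g (483 and 347) and Lhx2 (366 and 252) not so with equal numbers of peaks. In the upper 50% of peaks the difference (LS minus MS) turned positive at Lhx2 (35.9 bp per Mb), Dhx38 (20.2), Hdac5 (8.56), Kmt2d (424.8) and Tpsg1 (11.7).

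**Figure D5:**
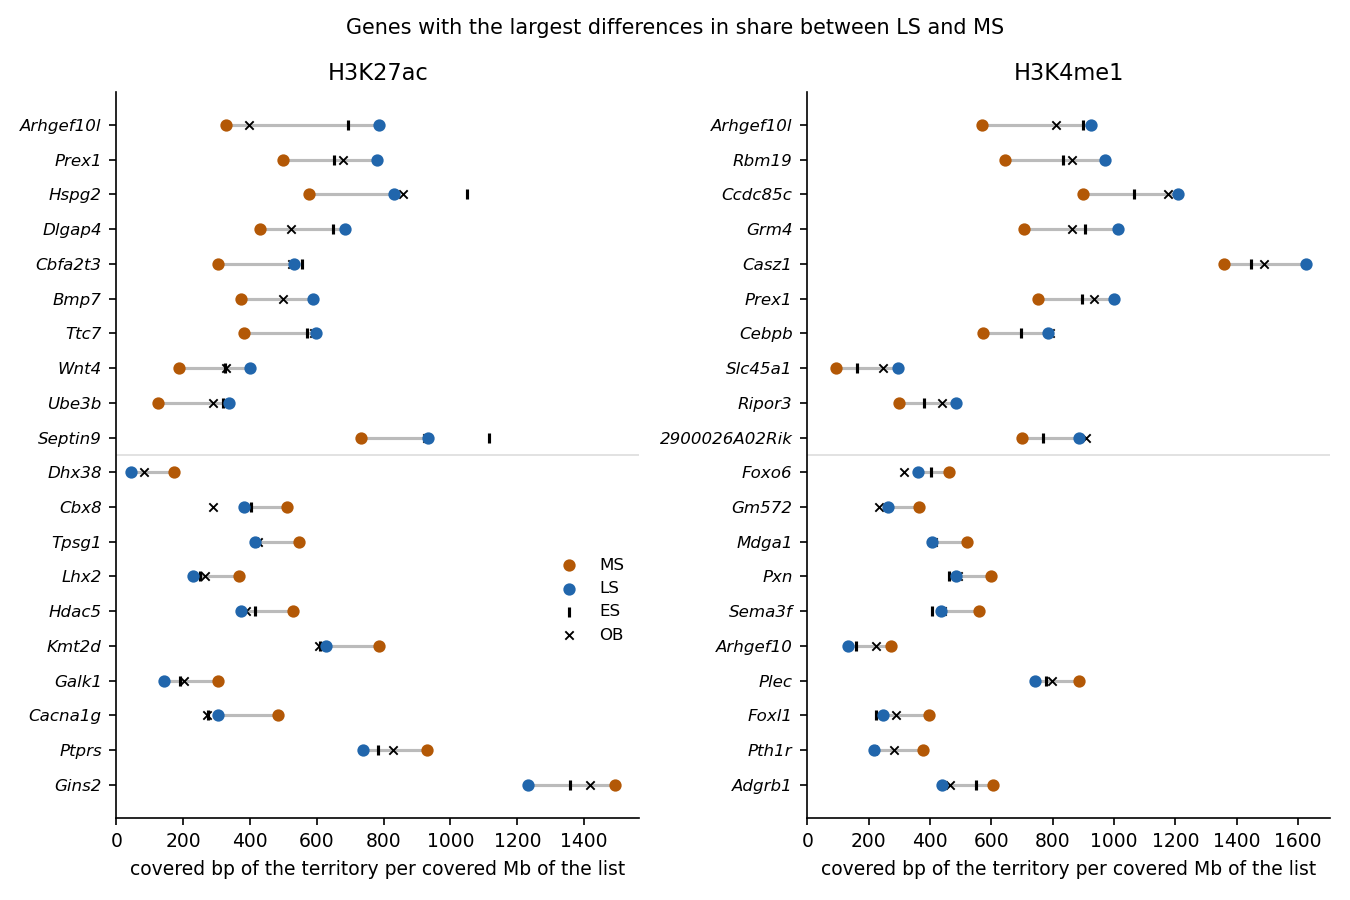
Share of covered bases in the territory (x axis, bp per covered Mb) at MS (orange), LS (blue), ES (bar) and OB (cross) for the 10 genes with the largest positive and the 10 with the largest negative difference per mark (y axis). For H3K27ac Arhgef10l went from 330 at MS to 787 at LS and Cacna1g from 483 to 305.

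For H3K4me1, Arhgef10l was followed by Rbm19 (646 bp per Mb at MS, 971 at LS), Ccdc85c (898 and 1209.5), Grm4, a glutamate receptor gene (707 and 1012), Casz1, a zinc finger gene of the heart (1358 and 1626, a difference of 268 that was 26.3 with 50 kb territories), Prex1 (752 and 1000) and Cebpb (573 and 785). Slc45a1 had the highest ratio among them, with 93.1 bp per Mb at MS and 294 at LS (4.12 and 15.1 kb); it held 161 at ES and 247 at OB. At Slc45a1 7 regions were LS-only, of which 3 were marked at ES and 6 at OB. Negative differences were largest at Adgrb1 (604 and 440), Pth1r, the parathyroid hormone receptor (378 and 217), Foxl1, a forkhead gene (397 and 247), Plec (885 and 743) and Arhgef10, a relative of Arhgef10l (273 and 132). Arhgef10l and Arhgef10 thus differed in opposite directions for H3K4me1 over all peaks; in the upper 50% of peaks Arhgef10 (40.1), Foxl1 (51.9) and Gm572 (2.28 bp per Mb, LS minus MS) turned positive. At Pth1r 1 shared region was covered over 11.4 kb at MS and 6.35 kb at LS.

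The 8 streak genes were named whatever their values. For each mark 5 of them reached the 2 kb that a call needs, and none of these was called; T, Mixl1 and Msgn1 were below it and could not be called. T, the T-box gene that defines the streak, had 0.934 kb of H3K27ac at both MS and LS (26.0 and 22.2 bp per Mb) and 1.25 and 1.20 kb of H3K4me1. Eomes had 124 bp per Mb of H3K27ac at MS and 86.9 at LS (130 at ES, 97.8 at OB), while its H3K4me1 share was 78.5 at MS and 115 at LS. The marks at Eomes thus differed in opposite directions, each by less than 1.5-fold (with equal numbers of peaks, H3K4me1 was 78.5 and 119 and passed the rule). Gsc, a homeobox gene of the organizer, had an H3K4me1 share of 207 at MS and 148 at LS, and of 150 and 133 for H3K27ac. Nodal had 67.5 and 61.0 for H3K27ac and 53.6 and 48.0 for H3K4me1. Mesp1, which marks the first cardiac mesoderm, had 116 and 107 for H3K27ac, with 157 at OB, and 162 and 136 for H3K4me1. For Mixl1 the H3K27ac shares were 38.6 and 29.8, for Tbx6 113 and 112, and for Msgn1 36.7 and 37.9. The H3K27ac differences at Mesp1 and Tbx6 turned positive with equal numbers of peaks (4.69 and 14.3 bp per Mb, LS minus MS) and in the upper 50% (69.1 and 163). In covered bases not scaled to the list, Mesp1, Tbx6, Nodal and Gsc for H3K27ac and Mixl1 and Nodal for H3K4me1 also had more at LS, so no direction is read for these genes.

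Over all 21 lists of developmental and reference genes, 246 of 352 genes were tested for H3K27ac, of which 16 (6.504%) were higher and 7 (2.85%) lower, below the 12.7% and 6.67% of all genes. For H3K4me1 it was 12 higher and 12 lower of 266 (4.51% each), against 10.9% and 6.97%. The median log2 ratio of LS to MS was −0.06 over the listed and −0.03 over all tested genes for H3K27ac, and −0.05 and −0.03 for H3K4me1. Many calls at listed genes depended on the setting. With equal numbers of peaks 12 of the 16 higher and 3 of the 7 lower H3K27ac calls and 11 and 7 of the 12 and 12 H3K4me1 calls were made again. The calls lost were Dnmt3a, Erg, Pcsk6 and Tcf7l2 (higher) and Foxh1, Lhx2, Nanos3 and Spry1 (lower) for H3K27ac, and Ywhaz (higher) and Hoxb9, Id4, Itga5, Ocln and Prrx1 (lower) for H3K4me1. With territories of 50 kb those of Bmp7, Cdh5, Erg, Foxf1, Pcsk6 and Tcf7l2 for H3K27ac and of Gata5, Mest, Dkk1 and Id4 for H3K4me1 were lost. In covered bases not scaled to the list 2 of the 7 and 4 of the 12 lower calls were made again, and all higher ones. Among the upper 50% of peaks, 6 of 16 higher and 3 of 7 lower calls were made again for H3K27ac, and 7 and 3 of 12 for H3K4me1.

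Among paraxial mesoderm genes, 2 of 18 tested were higher for each mark and 0 lower. Meox1 was higher in both, with 74.97 bp per Mb of H3K27ac at MS and 127 at LS (122 at ES, 90.4 at OB, 149 at EHF) and 88.0 and 162 of H3K4me1. Tcf15 had 38.3 and 78.6 for H3K27ac (54.9 at ES, 51.9 at OB) and 74.8 and 77.1 for H3K4me1, where it was not called. Mest had 80.0 and 127 for H3K4me1. Of 13 blood and endothelium genes 3 were higher for H3K27ac: Gfi1b, a repressor of blood progenitors (83.5 and 130), Cdh5, the cadherin of endothelium (28.8 and 67.5; the difference of 38.7 was 9.57 with territories of 50 kb), and Erg, an endothelial ETS factor (35.7 and 56.1). Gfi1b was lower for H3K4me1 (189 and 115), and the H3K27ac difference at Erg was −14.6 bp per Mb with equal numbers of peaks and −17.1 with territories of 50 kb. Klf1, a red cell factor, was higher for H3K4me1 (33.0 and 50.2), 1 of 16. In the lateral plate list Foxf1 was higher for H3K27ac (180 and 289) and Osr1, an early kidney and mesoderm factor, lower (178 and 82.5), out of 20 tested. For H3K4me1 Prrx1, a mesenchymal homeobox gene, was lower (73.2 and 47.6), 1 of 20. In the upper 50% of peaks Osr1 (16.9 bp per Mb, LS minus MS) and, for H3K4me1, Gfi1b (156.6) turned positive, and Erg (−29.1) and, for H3K4me1, Mest (−9.73) negative.

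Among signalling genes, Acvr1b, a type I receptor of Nodal and activin, was higher in both marks. Its shares were 114 bp per Mb at MS and 199 at LS for H3K27ac (147 at ES, 130 at OB, 195 at EHF) and 77.2 and 192 for H3K4me1 (97.6, 199 and 97.9). Foxh1, the DNA-binding partner of the Smads in this pathway, was lower for H3K27ac (88.4 and 57.2). Pcsk6, a protease that matures Nodal, was higher at the edge of the rule (35.6 and 53.5; 35.6 and 42.3 with equal numbers of peaks). In all 2 of 16 Nodal pathway genes were higher and 1 lower for H3K27ac, and 1 of 17 higher and 0 lower for H3K4me1. Of the Wnt list, Notum, a secreted Wnt inhibitor (70.5 and 112), and Tcf7l2, a nuclear effector (158 and 238), were higher for H3K27ac, 2 of 21 tested. For H3K4me1 Tcf7, another such effector, was higher (130 and 197) and Dkk1, a secreted antagonist, lower (67.7 and 43.1), out of 22; the difference at Dkk1 was −0.29 bp per Mb with territories of 50 kb. The Wnt list had the highest median log2 ratio of the signalling lists for H3K27ac, 0.17, and −0.09 for H3K4me1. Of the Bmp list Bmp7 was called for H3K27ac, 1 of 20, and Id4, a Bmp target, was lower for H3K4me1 (102 and 66.0), 1 of 21. Of the Fgf list Spry1, a feedback inhibitor, was lower for H3K27ac (102 and 64.8), 1 of 16. Of the Notch list 0 of 19 genes were called for H3K27ac and 0 of 20 for H3K4me1. In the upper 50% of peaks the H3K27ac differences at Acvr1b (−5.79 bp per Mb), Pcsk6 (−1.66), Notum (−7.06) and Tcf7l2 (−25.0) turned negative.

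In the epiblast list Dnmt3a, a de novo DNA methyltransferase, was higher for H3K27ac (305 bp per Mb at MS and 465 at LS, with 292 at ES and 284 at OB), 1 of 12; with equal numbers of peaks LS held 407 and 0 of the list were called. Pou5f1, the core pluripotency factor Oct4, was higher for H3K4me1 (23.3 and 55.9, with 14.8 at ES and 18.7 at OB), 1 of 15. At both genes LS stood above all other stages from ES on. Of the posterior list Hoxd4 was lower for H3K27ac (162 and 96.2; 89.1 bp per Mb higher at LS in the upper 50% of peaks), and for H3K4me1 Hoxb9 was lower (163 and 107). In the cardiac list 0 of 14 genes were called for H3K27ac; for H3K4me1 Gata5 was higher (149 and 233) and Tnnt2, cardiac troponin T, lower (62.9 and 35.4). In the neural list Lhx2 alone was called, 1 of 23, and for H3K4me1 0 of 23. In the germ cell list Nanos3 was lower for H3K27ac (132 and 79.4; 4.32 higher in the upper 50% of peaks) and Prdm1, the repressor that sets up germ cells, for H3K4me1 (90.7 and 50.8), each 1 of 5. The streak list had 1 lower gene of 13 for H3K27ac, Foxh1, and 0 called of 13 for H3K4me1. Of the epithelial-mesenchymal list Ocln, a tight junction gene (67.5 and 44.2), and Itga5, a fibronectin receptor (79.5 and 51.9), were lower for H3K4me1, 2 of 16, and 0 of 16 were called for H3K27ac. In the surface ectoderm list Krt8, an epithelial keratin, was higher for H3K4me1 (36.6 and 70.2), 1 of 14. In the definitive endoderm and node list Pcsk5 and Dkk1 were lower for H3K4me1, 2 of 18, and 0 of 16 were called for H3K27ac.

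In the visceral endoderm list, for H3K4me1, Apoe (30.2 and 54.3) and Apoa1 (11.0 and 39.3) were higher and Hnf4a (57.0 and 25.8) lower, out of 11. In the trophoblast list Esx1 was higher for H3K27ac (33.7 and 81.8, with 55.8 at ES and 82.6 at OB), 1 of 14, with Elf5 covered over 0.406 kb at LS and 0 kb at MS. Among genes of adult tissues Ckm (107 and 172) and Acta1 (49.5 and 80.0) were higher for H3K27ac, 2 of 3 tested; Ckm turned in the upper 50% of peaks (−9.55). Among housekeeping genes Rpl13a was lower for H3K27ac (78.3 and 37.8), 1 of 9. For H3K4me1 Ywhaz was higher (97.4 and 154) and Polr2a lower (57.4 and 34.2; 3.56 higher in the upper 50% of peaks), out of 8.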

How the data were processed

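CoBATCH profiles of H3K27ac and H3K4me1 in C57BL/6 mouse embryos of 6 stages, 1 library per stage and mark, were deposited as 12 broad peak lists on mm10. Bowtie2, Picard, MACS2 and deepTools are named, per the submitters' processing notes; no label or file header gives their settings. In each deposited list the authors gave every peak a fold (a ratio over local background), a −log10 p and a −log10 q, which was used to rank peaks; the deposited score was not used. The lists hold no read totals. Relative depth was read from the background at the weakest peaks, with fold taken as (pileup + 1)/(background + 1), which is an assumption about the peak caller, and a Poisson p matched to within 0.001.

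MS and LS peaks overlapping by at least 1 bp were merged. Distances were to the nearer end of 21631 RefSeq protein-coding genes (GRCm38.p6) on 19 autosomes and X, whose table gives no strand. Shares, territories and the 1.5-fold rule are defined in the text; log2 ratios add 10 bp per Mb. No p-value was computed, because each group is 1 library. Named were the 10 genes per mark with the largest difference in each direction and the same sign with equal numbers of peaks and unscaled, called list members (up to 4 per list and mark), the 5 strongest single-stage regions per class, and 8 streak genes whatever their values; a few genes and regions that met these rules are not reported here. The members and the 21 gene lists (352 genes) were chosen with earlier results of these data known. Alternatives were equal numbers of peaks, the upper 50%, no peaks at the lowest fold, 20% overlap, 1 kb merging, 5 kb for far, 50 kb territories and no scaling. Scripts ran in Python 3.11.15 with NumPy 2.4.6, pandas 2.3.3, SciPy 1.17.1 and matplotlib 3.10.9 and were tested on simulated data.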

Additional observations from a re-analysis of the deposited data

How the results depend on the processing

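With equal numbers of peaks, which by itself makes the counts similar, the H3K27ac single-stage counts were 5564 (MS-only) and 5353 (LS-only). MS-only regions then lay far from genes in 92.8%, were marked at ES in 53.5% and at OB in 41.7%, and held H3K4me1 at MS in 55.2% and at LS in 65.3%. For LS-only regions these were 88.5%, 59.5%, 59.2%, 69.5% and 85.2%, and 46.7% of shared regions were far. For H3K4me1, MS-only regions were marked at ES in 38.8% and OB in 36.4%, LS-only regions in 54.0% and 58.9%, and 58.0% of shared regions were far. In the upper 50% of each list there were 400 MS-only, 5036 LS-only and 14599 shared H3K27ac regions, far in 78.2%, 70.7% and 27.5%, and 1840, 3724 and 19016 H3K4me1 regions, far in 82.4%, 80.8% and 38.0%. Most of these single-stage regions had a peak of the other stage in its full list. This held for 92.25% of MS-only and 85.2% of LS-only H3K27ac regions, and for 91.8% and 85.15% for H3K4me1. The upper 50% of H3K27ac held 15036 peaks at MS and 19817 at LS. With far set at 5 kb the values were 84.8%, 74.1% and 37.3% for H3K27ac and 81.2%, 77.4% and 44.9% for H3K4me1. Without the weakest peaks 4582 H3K4me1 regions were MS-only. Unscaled, 1421 genes were higher and 243 lower for H3K27ac, and 1447 and 263 for H3K4me1. Counts with 20% overlap, 1 kb merging and 50 kb territories stayed within 1.5 times the main ones.

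Of 101 differences at named genes 27 changed sign under at least 1 alternative and 74 kept it under all; 21 of the 27 were at called genes or those with the largest differences and 6 at streak genes that were not called. In the upper 50% of peaks (LS minus MS, bp per Mb) H3K27ac gave Lhx2 35.9, Hoxd4 89.1, Ube3b −6.96, Ckm −9.55, Pcsk6 −1.66, Nanos3 4.32, Dhx38 20.2, Hdac5 8.56, Notum −7.06, Osr1 16.9, Kmt2d 424.8, Acvr1b −5.79, Erg −29.1, Tpsg1 11.7 and Tcf7l2 −25.0. H3K4me1 gave Gfi1b 156.6, Gm572 2.28, Mest −9.73, Arhgef10 40.1, Foxl1 51.9 and Polr2a 3.56. Erg was also −14.6 with equal numbers and −17.1 with 50 kb territories. The upper 50% holds fewer peaks; the cause of each change was not tested. No paired analysis was possible because each stage and mark has 1 library. Depth differed with stage, so a weak peak missing at MS may lie under the detection limit there, which was not tested, and stage and library cannot be told apart.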

Other observations

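Shared regions that differed most in width between MS and LS were chosen after their values were seen. For H3K27ac the region at Nyap1 was covered over 5.60 kb at MS and 10.7 kb at LS, with 10.6 kb at ES and 5.55 kb at OB. That at Tecr (4.69 and 8.96 kb) was also wider at LS. The region near Mid1 was covered over 5.59 kb at MS and 0.861 kb at LS, with 4.02 kb at ES and 0.84 kb at OB. Those at Hdac5, a histone deacetylase (11.6 and 7.45 kb), and Mxra7 (4.33 and 0.956 kb) were narrower at LS too.

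For H3K4me1 the region at Tead3, a partner of the Hippo effector Yap, was covered over 5.96 kb at MS and 13.3 kb at LS and OB. Those at Dgkz (8.27 and 15.4 kb) and Casz1 (1.90 and 7.52 kb) were wider at LS, and those at Slc41a3 (4.76 and 1.38 kb) and Kcnj4 (4.20 and 0.870 kb) narrower. Among the genes with the most single-stage H3K27ac regions by nearest end, Sh3pxd2a, a scaffold of podosomes, had 16 LS-only and 2 MS-only regions beside 6 shared ones. Grik3, a glutamate receptor gene, had 14 LS-only and 5 MS-only beside 7 shared. Over all H3K27ac regions 29.1% were LS-only and 7.11% MS-only. The counts were not scaled to territory length, and clustering was not tested.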
